A study of Homo sapiens with 30 samples.

Results

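The mimic of miR-512-3p was compared with the mimic control in HepG2 cells that received only the vehicle dimethyl sulfoxide (DMSO), so that no drug was present. The 6 libraries were chosen by their labels, as the 3 biological replicates of M-miR-512-3p with DMSO and the 3 of the mimic control (MC) with DMSO, out of 30 libraries in the series. HepG2 is an established human liver tumour line, labelled as hepatocellular carcinoma and described by the study as hepatoblastoma. All 6 cultures were transfected with an oligonucleotide by Lipofectamine RNAiMAX, received DMSO 24 h later and were lysed after 24 h of DMSO. In the other arm of the same experiment, the same 2 transfections were followed by sorafenib, a multikinase inhibitor, at 10 µM for 24 h. A mimic supplies a single miRNA from outside the cell, each group is 1 cell line, and the libraries read polyadenylated RNA and do not measure the mimic itself.

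A miRNA is loaded into an Argonaute protein and pairs through its seed, bases 2 to 8 from the 5′ end, with sites that lie mostly in the 3′ untranslated region (UTR) of messenger RNAs. Bound messengers are translated less and lose their poly(A) tail, so their level usually falls. miR-512-3p belongs to a primate-specific group of miRNA genes on chromosome 19 that is active mainly in placenta and in some tumours. It is neighbour and relative to the miR-372 and miR-520 genes, whose mature forms share a similar 5′ end.

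The mature sequences are shown because the seed sets which messengers can pair. They were taken from RefSeq (GRCh38.p14), with bases 2 to 8 in capitals. The sequence of the commercial mimic is not given in the sources used here. hsa-miR-512-3p is encoded by MIR512-1 (chr19:53666729-53666750, plus strand) and by MIR512-2 (chr19:53669213-53669234, plus strand). Among the mature miRNAs in RefSeq, no other had the same bases 2 to 8, but in 12 miRNAs bases 2 to 8 were equal to bases 1 to 7 of miR-512-3p, a frame moved by 1 base. These were miR-302a to miR-302e, miR-372-3p, miR-373-3p and the 3p forms of miR-520a to miR-520e. Of these, only miR-372-3p carried bases 1 to 8 of miR-512-3p at its own bases 2 to 9. miR-222-5p, the other mimic of the experiment, has an unrelated seed.
hsa-miR-512-3p: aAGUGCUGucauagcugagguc
hsa-miR-372-3p: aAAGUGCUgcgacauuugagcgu
hsa-miR-302a-3p: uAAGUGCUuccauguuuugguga
hsa-miR-520a-3p: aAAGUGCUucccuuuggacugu
hsa-miR-222-5p: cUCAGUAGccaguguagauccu

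A site was defined as CAGCACT, the complement of bases 2 to 8, on the messenger strand of the longest annotated 3′ UTR of a gene (GENCODE release 44). Sites of 9 of the 10 genes with the largest fall among those that passed the test and held a site are printed as 24 bases of GRCh38, with the complement of bases 2 to 8 in capitals. Windows with the most frequent bases around the site were left out by rule. What sites share outside the capitals can thus not be read from these 9. All lie in 3′ UTRs. ZNF385C is at chr17:42025753-42025776 (minus strand), KRTAP3-1 at chr17:41008705-41008728 (minus), MXD4 at chr4:2248456-2248479 (minus), DHX40 at chr17:59607257-59607280 (plus), USP46 at chr4:52597469-52597492 (minus), SMAD9 at chr13:36847271-36847294 (minus), TMEM263 at chr12:106971403-106971426 (plus), TNFAIP1 at chr17:28346202-28346225 (plus) and MBD2 at chr18:54152483-54152506 (minus).
ZNF385C: actcctttccactgCAGCACTgcc
KRTAP3-1: caccatctgggcttCAGCACTcac
MXD4: cttgcttccccagcCAGCACTgca
DHX40: caagaggaggtggtCAGCACTtgt
USP46: tgtgtttttacatgCAGCACTact
SMAD9: atgcttgtaacagaCAGCACTtca
TMEM263: acacttgcgctccaCAGCACTgta
TNFAIP1: cttgaatgtataaaCAGCACTaag
MBD2: tcccgttacagcccCAGCACTtag
SMAD9 held 4 sites, DHX40 and USP46 held 3 each, and the other 6 genes shown held 1.

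The 6 libraries held 3941570 to 7883063 counts each. Log2 levels of these libraries correlated across genes at 0.923 to 0.960 within a group and at 0.912 to 0.952 between groups. MC replicate 2, the smallest library, correlated at 0.945 and 0.937 with MC replicates 1 and 3 and at 0.949 and 0.952 with mimic replicates 2 and 3, and the comparison was repeated without it. The correlations of MC replicate 3, 0.912 to 0.937, included the lowest of both kinds. Levels are given in CPM, counts scaled to the size of the library. Depending on the library, 0 counts leave room for 0.381 to 0.761 CPM, taking 3 counts as the limit, which covers counting error only because PCR copies are not independent molecules. All 12 hepatocyte-lineage markers were present in every library, with a summed level, scaled by total counts, of 16587 to 18102 CPM in MC and 20379 to 20952 CPM with the mimic. Of 16 markers of other cell types, 6 (CD3E, COL3A1, DCN, KRT14, SFTPC and VWF) were at 0 in every library. The sum of the 16 was 232 to 252 CPM in MC and 306 to 373 CPM with the mimic. Within it, LYZ went from 107 to 141 CPM in MC to 247 to 309 CPM, and ACTA2 from 81.9 to 120 CPM to 38.7 to 42.7 CPM. Of the 12 hepatocyte markers, 8 had a positive log2 fold change with the mimic and 4 a negative one. Counts from mitochondrial DNA were 20.9 to 23.7% in MC and 19.7 to 20.2% with the mimic, and the part of these shifts in the results was not tested. In such bulk RNA, fewer cells of a kind and less RNA per cell cannot be told apart.

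With the mimic alone, 35 genes were higher and 49 were lower than in MC. Of these, the gene that rose most was IGFBP1, a secreted binder of insulin-like growth factors. The called gene that fell most, among those with a mean of at least 5 CPM, was UBD, the ubiquitin-like modifier FAT10. These 84 genes were 0.634% of the 13244 tested (edgeR quasi-likelihood test, Benjamini-Hochberg adjusted p under 0.05), 0.264% higher and 0.37% lower. The median fold among them was 2.15 for the higher and 2.46 for the lower genes, and 5 higher and 8 lower genes differed by over 4 times. In all 84, the 3 mimic libraries did not overlap the 3 MC libraries, which was so for 2836 genes (21.4%) of all tested. Scaling by total counts instead of TMM, edgeR's trimmed-mean scaling, gave 20 higher and 53 lower genes. Leaving out 1 library at a time gave 42, 44 and 18 genes without MC replicate 1, 2 and 3, and 24, 22 and 19 without mimic replicate 1, 2 and 3. In all 6 of these fits, all 84 genes kept their direction, and 12 genes passed in each of them. These were IGFBP1, NDRG1 and OAF among the higher genes and SAMD11, UBD, GLTP, MXD4, DHX40, TMEM263, MBD2, LCOR and ACTA2 among the lower.

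**Figure D1:**
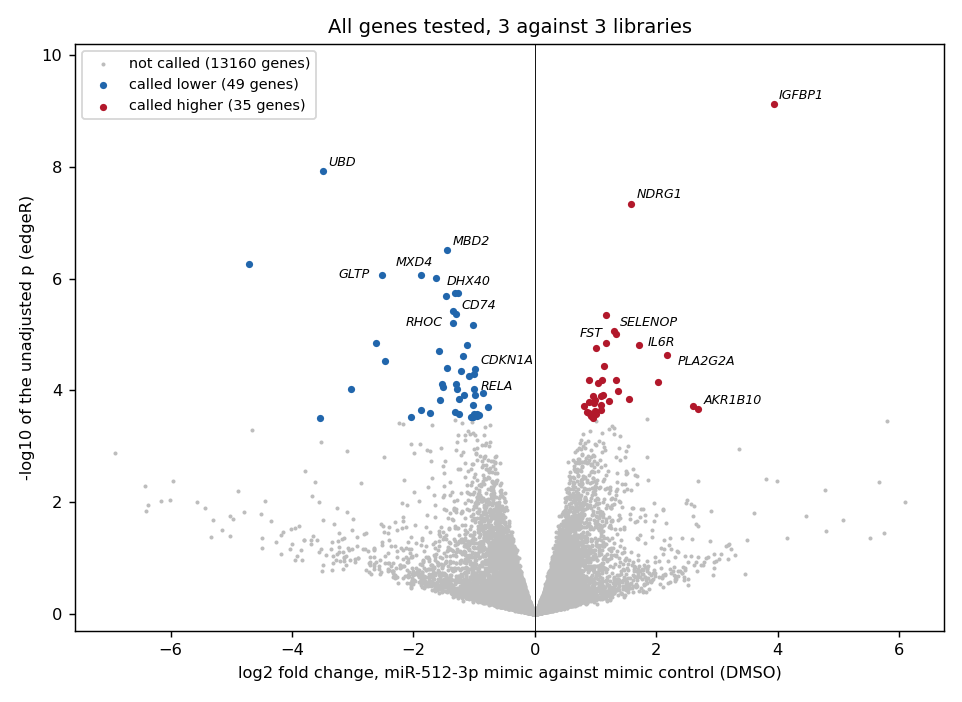
Each point is 1 of the 13244 genes tested, with the log2 fold change of the miR-512-3p mimic against the mimic control in DMSO on the x axis and −log10 of the unadjusted edgeR p on the y axis. The 35 genes called higher (red) and the 49 called lower (blue) stand above a broad base of 13160 genes not called, with IGFBP1 and UBD as the highest points on either side.

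IGFBP1 (ENSG00000146678, chr7:45888360-45893660) measured 551, 495 and 546 CPM with the mimic and 29.1, 49.2 and 26.7 CPM in MC. The lowest mimic library was thus far above the highest control library. The log2 fold change was 3.93 (SE 0.40, adjusted p = 1e-05). IGFBP1 is made by liver cells and is known to respond to fasting, insulin, hypoxia and endoplasmic reticulum stress. Its annotated 3′ UTR of 569 bases held no site for miR-512-3p. NDRG1 (ENSG00000104419), a hypoxia-responsive gene of differentiation and iron balance, measured 126, 105 and 113 CPM with the mimic and 38.6, 35.7 and 40.0 CPM in MC, a log2 fold change of 1.59 (SE 0.20, adjusted p = 0.000201). Both groups were tight and well apart. OAF, a secreted protein of little known role, measured 232, 194 and 204 CPM against 95.5, 84.2 and 101 CPM, again without overlap (log2 fold change 1.17, SE 0.20, adjusted p = 0.00419).

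Several of the other higher genes encode proteins that liver cells secrete or that carry lipids. SELENOP, the plasma carrier of selenium, rose by 1.30 (SE 0.23, adjusted p = 0.0067), from 369, 339.6 and 274 CPM in MC to 649, 833 and 940.5 CPM. PLA2G2A, a secreted phospholipase of inflammation, measured 38.2, 36.2 and 58.2 CPM against 10.5, 11.4 and 7.74 CPM (log2 fold change 2.17, SE 0.41, adjusted p = 0.012). All 3 mimic libraries were higher in each case. IL6R, the receptor of interleukin 6, measured 83.2, 98.7 and 68.6 CPM against 25.1, 27.9 and 23.5 CPM (log2 fold change 1.71, SE 0.32, adjusted p = 0.00914). APOM, an apolipoprotein of high-density lipoprotein that carries sphingosine phosphate, measured 135, 129 and 140.2 CPM against 81.4, 60.2 and 59.1 CPM (log2 fold change 1.01, SE 0.19, adjusted p = 0.00995). FABP1, the main fatty acid binder of the liver, rose by 1.00 (SE 0.23, adjusted p = 0.0459) with mimic libraries between 330.1 and 341 CPM and control libraries between 131 and 190.4 CPM. The calls of SELENOP, PLA2G2A and IL6R were each lost in 2 of the 6 fits that left out 1 library, that of APOM in 3 and that of FABP1 in all 6, with adjusted p of 0.0695, 0.121, 0.0695, 0.107 and 0.275 without MC replicate 3.

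Other higher genes act in signalling, growth or detoxification. FST, the secreted inhibitor of activin, rose by 1.33 (SE 0.24) and BMP4, a bone morphogenetic protein, by 0.89 (SE 0.20). BMP4 was at 484, 328 and 321 CPM in MC against 775, 687 and 631 CPM with the mimic. DUSP7, a phosphatase of the kinase ERK, rose from 2.14, 3.4 and 1.29 CPM to 12.4, 13.2 and 15 CPM. AKR1B10, an aldo-keto reductase of the antioxidant response, measured 25, 32.9 and 27.2 CPM with the mimic against a widely spread 3.53, 9.46 and 0.86 CPM in MC (log2 fold change 2.69, SE 0.62, adjusted p = 0.0442). AKR1C1, which acts on steroids and aldehydes, rose by 0.92 (SE 0.22, adjusted p = 0.0481). Both aldo-keto reductases have near-identical paralogs, so their counts are uncertain. CENPA, the histone that marks centromeres, rose by 1.37 (SE 0.30) and shares its strand and locus with SLC35F6, which fell, so the split of their reads is uncertain too. EPCAM, an adhesion molecule of epithelia and liver progenitors, and DNMT3B, a DNA methyltransferase, rose by 0.82 and 1.09. DEPP1, which is induced by FOXO factors and fasting, measured 30.0, 22.2 and 38.2 CPM against 11.1, 5.58 and 5.16 CPM (log2 fold change 2.03). LYZ, lysozyme, one of the markers of other cell types, rose by 1.18 from 129, 134 and 98.3 CPM to 279, 239 and 299 CPM. Each of these 10 calls was lost in at least 1 of the 6 fits that left out 1 library, that of FST in 1 and those of DUSP7, AKR1C1, EPCAM and DNMT3B in all 6, with a largest adjusted p of 0.25 for DUSP7 without MC replicate 3.

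**Figure D2:**
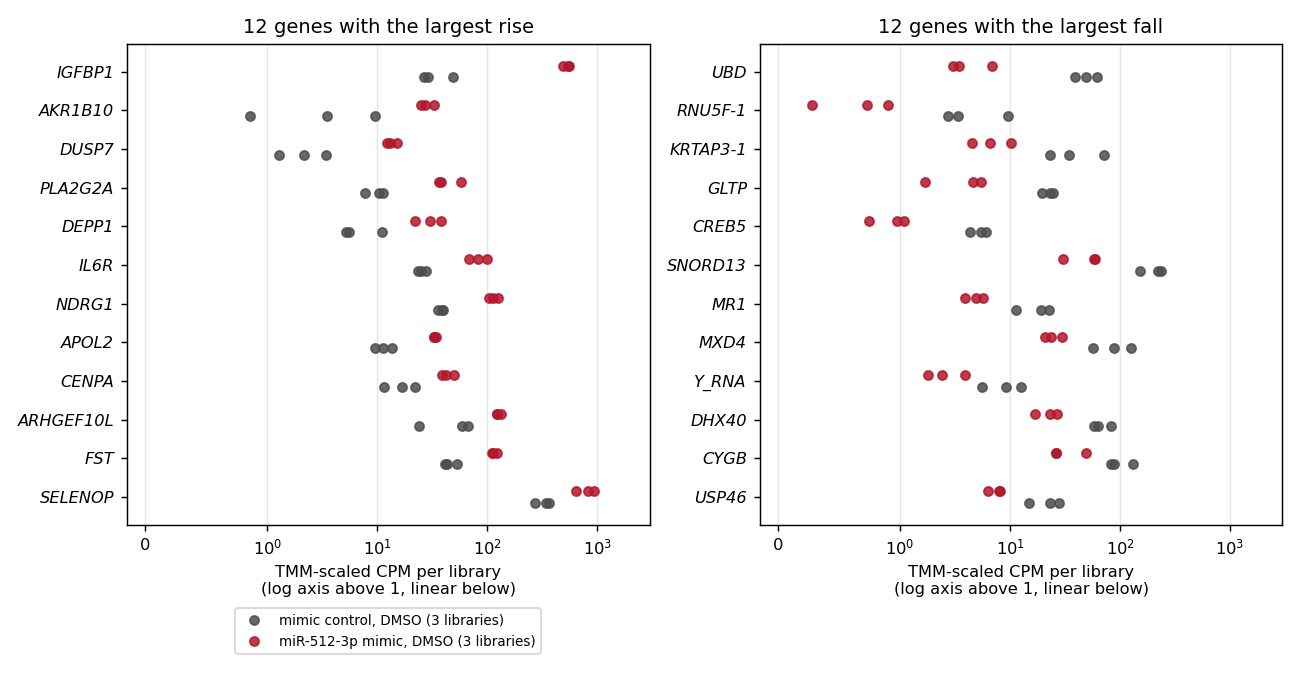
Each point is 1 library, with the level in TMM-scaled CPM on the x axis (logarithmic above 1 and linear below) for the 12 genes with the largest rise (left) and the 12 with the largest fall (right), among called genes with a mean of at least 5 CPM in the higher group. The 3 mimic libraries (red) do not overlap the 3 control libraries (grey) for any of these genes, with the widest gap for IGFBP1 at 495 to 551 against 26.7 to 49.2 CPM.

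Among the lower genes, those with a site in the 3′ UTR included regulators of chromatin, transcription and RNA. MBD2 (ENSG00000134046), which binds methylated DNA, measured 17.6, 19.5 and 19.2 CPM with the mimic and 52.2, 55.1 and 45.7 CPM in MC. The replicates of each group were close and the groups were far apart (log2 fold change −1.44, SE 0.21, adjusted p = 0.00101). DHX40 (ENSG00000108406), a putative RNA helicase, measured 23.1, 26.8 and 16.8 CPM against 63.6, 58.5 and 83.3 CPM (log2 fold change −1.62, SE 0.25, adjusted p = 0.00158). GLTP (ENSG00000139433), the glycolipid transfer protein, measured 1.7, 4.64 and 5.41 CPM against 24.7, 19.4 and 22.9 CPM (log2 fold change −2.52, SE 0.38, adjusted p = 0.00158). MXD4 (ENSG00000123933), a partner of MAX that opposes MYC, measured 29.9, 23.4 and 20.8 CPM against a wider 88.1, 57.3 and 126 CPM (log2 fold change −1.88, SE 0.29, adjusted p = 0.00158). For these 4 genes every mimic library was below every control library, and each passed in all 6 fits that left out 1 library. MXD4 and MBD2 had a single site, and the best site of MBD2, DHX40 and GLTP paired with bases 1 to 8.

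The other lower genes with a site covered further cell functions. TNFAIP1, an adaptor of a ubiquitin ligase, fell by 1.45 on the log2 scale, from 58.6, 43.7 and 61.8 CPM to 22.6, 20.7 and 16.9 CPM. SPOP, another substrate adaptor of a ubiquitin ligase, fell by 1.00, from 246, 251 and 269 CPM to 161, 120.2 and 102 CPM. Neither gene's groups overlapped. RHOC, a small GTPase of cell movement, fell by 1.36, with libraries at 23.7, 25.5 and 19.6 CPM against 59.3, 46.1 and 70.2 CPM. RELA, the p65 subunit of NF-kB, fell by 0.99, with libraries at 62.3, 52.7 and 49 CPM against 93.2, 88.3 and 143 CPM. SMAD9, a signal carrier of bone morphogenetic proteins, fell by 1.52 and USP46, a deubiquitinase, by 1.56, both below 30 CPM in MC. TMEM263, a small membrane protein, fell by 1.46 and passed in all 6 fits, whereas the calls of TNFAIP1, SPOP and USP46 were lost in 5, that of RELA in 4, that of RHOC in 2 and that of SMAD9 in all 6. The largest adjusted p in these fits was 0.276 for RELA, without MC replicate 3. KRTAP3-1, annotated as a keratin-associated protein of hair, spread from 22.9 to 71.8 CPM in MC and measured 4.49, 6.59 and 10.1 CPM with the mimic. ZNF385C was near the limit of detection with the mimic, at 6 counts over the 3 libraries against 65 in MC. The ratio of pooled counts was 12.9 (95% exact interval 5.63 to 36.5). This interval covers counting error only and leaves out the spread between libraries.

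The lower genes without a site included UBD and, at lower levels, SAMD11. UBD (ENSG00000213886, chr6:29555515-29559732) measured 6.8, 3.44 and 3.05 CPM with the mimic and 48.8, 39.3 and 62.2 CPM in MC, so that every mimic library was far below every control library (log2 fold change −3.48, SE 0.42, adjusted p = 7.98e-05). UBD tags proteins for the proteasome and is known to be induced by interferon gamma and tumour necrosis factor. Its locus overlaps GABBR1 on the same strand and OR2I1P on the opposite strand, so the split of their reads is uncertain. CD74, the invariant chain of class II antigen presentation, fell by 1.30 (SE 0.22, adjusted p = 0.00419), with libraries at 31.8, 24.3 and 22.9 CPM against 79.1, 51.9 and 63.1 CPM. CDKN1A, the cell cycle inhibitor p21, measured 83.9, 63 and 80.2 CPM against 124, 149.9 and 175 CPM (log2 fold change −0.98, SE 0.20, adjusted p = 0.0183). FGB, the fibrinogen beta chain, measured 122, 136 and 134 CPM against 257, 258 and 279.8 CPM (log2 fold change −1.02, SE 0.18, adjusted p = 0.00559). ACTA2, smooth muscle actin and one of the markers of other cell types, fell by 1.27, from 94.8, 78.4 and 111 CPM to 39, 37.6 and 41.2 CPM. Its locus overlaps FAS on the opposite strand. LCOR, a nuclear receptor corepressor whose UTR pairs with bases 1 to 7 only, fell by 1.31. SAMD11 held 3 counts over the 3 mimic libraries and 75 in MC, and overlaps NOC2L on the opposite strand. Its ratio of pooled counts was 29.8 (95% exact interval 9.82 to 148), again an interval of counting error only. The call of CD74 was lost in 2 of the 6 fits, that of FGB in 1 and that of CDKN1A in 5, with a largest adjusted p of 0.067, 0.0591 and 0.176, without mimic replicate 3, mimic replicate 1 and MC replicate 3.

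Of the 49 lower genes, 44 were protein-coding, 2 were long noncoding RNAs (PVT1 and MIR4435-2HG) and 3 (a Y RNA, SNORD13 and RNU5F-1) were small RNAs without a poly(A) tail, whose counts in such libraries are uncertain. All 35 higher genes were protein-coding. Another annotated gene overlapped 19 of the higher and 37 of the lower genes, on the opposite strand in 15 and 30 of them.

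Sites for miR-512-3p were more frequent among the lower than among the higher genes. Of the 44 lower genes with an annotated 3′ UTR, 25 (56.8%) held a site for bases 2 to 8, beside 5 of 35 higher genes (14.3%) and 2819 of all 11190 tested genes with a UTR (25.2%). Counting a match to bases 1 to 7 as well, as in the miR-372 frame, gave 29 (65.9%), 6 (17.1%) and 3773 (33.7%). Long UTRs hold more sites, and the median UTR length was 3024 bases for genes with a site and 1147 bases for those without.

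Across the transcriptome, the median differed between the classes of site. Genes with any site had a median log2 fold change of −0.04, beside 0.05 in the 6345 genes without even the inner 6-base match and 0.01 in all genes with a UTR. In the 298 genes with a site followed by an A opposite base 1, a context known to strengthen pairing, the median was −0.21, 65.8% were negative and 11 were called lower and 0 higher. Those 11 were 3.69% of the class, beside 0.393% called lower among all genes with a UTR. An unadjusted p under 0.05 was reached by 54 of the 298 downwards and by 5 upwards, 18.1% and 1.68%. Sites of bases 1 to 8, which are the longest pairing but end in T in place of that A, gave a median of −0.03 in 1887 genes. These made up most of the 2819 genes with any site and so weigh on its median. The part of the T, and of the bases around these sites, in these values was not tested. The shorter 6-base match followed by A gave −0.10 in 289 genes and the 6-base match alone −0.02 in 783. Genes with 2 or more sites (807) stood at −0.06 and those with 1 site (2012) at −0.04.

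The median with a site was the lower one in each range of UTR length. For UTRs up to 885 bases, between 885 and 2361 bases and above 2361 bases, the medians were −0.03, −0.07 and −0.03 with a site and 0.04, 0.08 and 0.02 without the 6-base match. By library, the median level of genes with a site minus that of genes without was 0.02, 0.06 and 0.04 in MC and −0.05, −0.03 and −0.05 with the mimic, on a log2 scale centred on the 6 libraries. For sites followed by A it was 0.09, 0.15 and 0.08 in MC and −0.13, −0.09 and −0.07 with the mimic. All 3 mimic libraries lay below all 3 control libraries in both measures. Genes are not independent replicates, and these medians are descriptions without a test. The 1276 genes with a site for miR-222-5p (CTACTGA) had a median of 0.00 in this comparison and of −0.17 with the miR-222-5p mimic against the same MC libraries. With that mimic against MC, genes with a site for miR-512-3p also had a lower median than those without the 6-base match, −0.04 beside 0.03. For the miR-512-3p mimic against the miR-222-5p mimic, the medians were 0.00 with any site and 0.02 without the match. Sites of bases 1 to 8 had 0.03. Most of the difference at any site was thus not seen against the other mimic. In that comparison the 1276 genes with a miR-222-5p site had a median of 0.17. Only 436 of them lacked the 6-base match for miR-512-3p, and the part of this overlap was not tested. For sites followed by A, the median was −0.05 for miR-222-5p against MC and −0.16 for miR-512-3p against miR-222-5p.

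**Figure D3:**
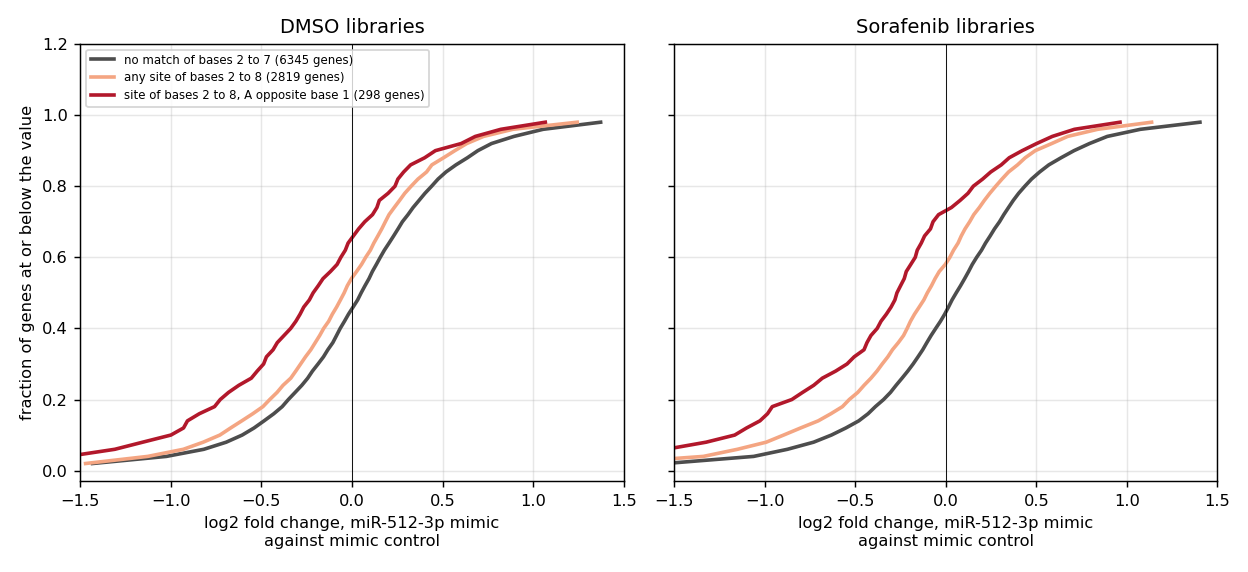
The curves give the fraction of genes (y axis) at or below a log2 fold change of the mimic against the mimic control (x axis), in DMSO (left) and in sorafenib (right), for genes without a 6-base match (grey, 6345), with any site (orange, 2819) and with a site followed by A opposite base 1 (red, 298). The red curve lies furthest to the left in both panels, with medians of −0.21 and −0.27.

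The pathway lists were read by how many members passed the test and by their median, beside a median of −0.01 over all genes, of which 5.32% reached an unadjusted p under 0.05 upwards and 5.13% downwards. Among stress lists, the hypoxia response genes stood highest. NDRG1 was the only one of 24 called, 21 of the 24 had a positive value, 10 had an unadjusted p under 0.05 upwards and 2 downwards, and the median was 0.52. EPO, the erythropoietin gene that hypoxia induces in liver cells, measured 13.1, 16.3 and 19.4 CPM against 3.02, 5.82 and 4.87 CPM without passing the adjustment (log2 fold change 1.84, adjusted p = 0.121). The collagen hydroxylase P4HA1 (0.77) and the crosslinking enzyme LOX (3.98, at under 1 CPM in MC) also missed it. In the integrated stress and unfolded protein response list, 0 of 35 members were called, 27 were positive, 11 had an unadjusted p under 0.05 upwards and 3 downwards, and the median was 0.35. The chaperone HSPA5 measured 1448, 1366 and 1240 CPM against 938, 923 and 905 CPM (log2 fold change 0.55, adjusted p = 0.208), and the serine synthesis enzyme PSAT1 had 0.92. The heat shock list had a median of 0.29 with 1 of 24 called, HSPA4L, a cochaperone of the HSP110 family with 3 sites, which fell by 1.18. Of 30 NRF2 antioxidant targets 2 rose (AKR1B10 and AKR1C1), with a median of 0.09.

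Growth lists held few calls. In DNA replication and S phase genes, 0 of 45 passed but 38 were positive, 8 had an unadjusted p under 0.05 upwards and 0 downwards, and the median was 0.27. FEN1, the flap endonuclease of lagging-strand synthesis, measured 155, 189 and 215 CPM against 81, 126 and 55 CPM (log2 fold change 1.10, adjusted p = 0.0744), and MCM2, a subunit of the replicative helicase, had 0.93. The list's median was 0.32 with the miR-222-5p mimic against the same MC libraries, and −0.06 for miR-512-3p against miR-222-5p. In the mitosis list 1 of 40 rose (CENPA), with a median of 0.15 and 31 positive, beside 0.22 for miR-222-5p against MC and −0.03 between the mimics. In the list of cell cycle inhibitors and p53 targets, 3 of 31 fell, CDKN1A, ZMAT3 and DDB2, by 0.98, 1.03 and 1.05. DDB2 recognises ultraviolet damage in DNA and ZMAT3 is an RNA-binding target of p53. The list's median was −0.14, with 23 negative values. The apoptosis regulators had 0 of 31 called (unadjusted, 0 higher and 3 lower) and a median of 0.11. ZMAT3 and DDB2 lost their calls in all 6 fits that left out 1 library.

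Immune lists had negative medians. In the list of UBD, immunoproteasome and antigen presentation genes, 2 of 22 fell (UBD and CD74), 16 were negative and the median was −0.24. PSMB9, a catalytic subunit of the immunoproteasome, measured 0.85, 3.44 and 3.19 CPM against 11.8, 11.4 and 7.45 CPM, without passing (log2 fold change −2.04, adjusted p = 0.0949). Of 31 interferon-stimulated genes 1 fell, the transcription factor IRF1, from 17.5, 25.2 and 21.2 CPM to 8.25, 8.98 and 8.19 CPM. This was a log2 fold change of −1.32 (adjusted p = 0.0469), lost in all 6 fits, and the list's median was −0.28. The NF-kB targets had the lowest median of the lists, −0.46, with 0 of 18 called (unadjusted, 1 higher and 4 lower) and 13 negative, but CCL20, a chemokine of this list, was at 32.2, 32.2 and 94.4 CPM against 9.58, 4.37 and 1.29 CPM (log2 fold change 3.35, adjusted p = 0.105).

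**Figure D4:**
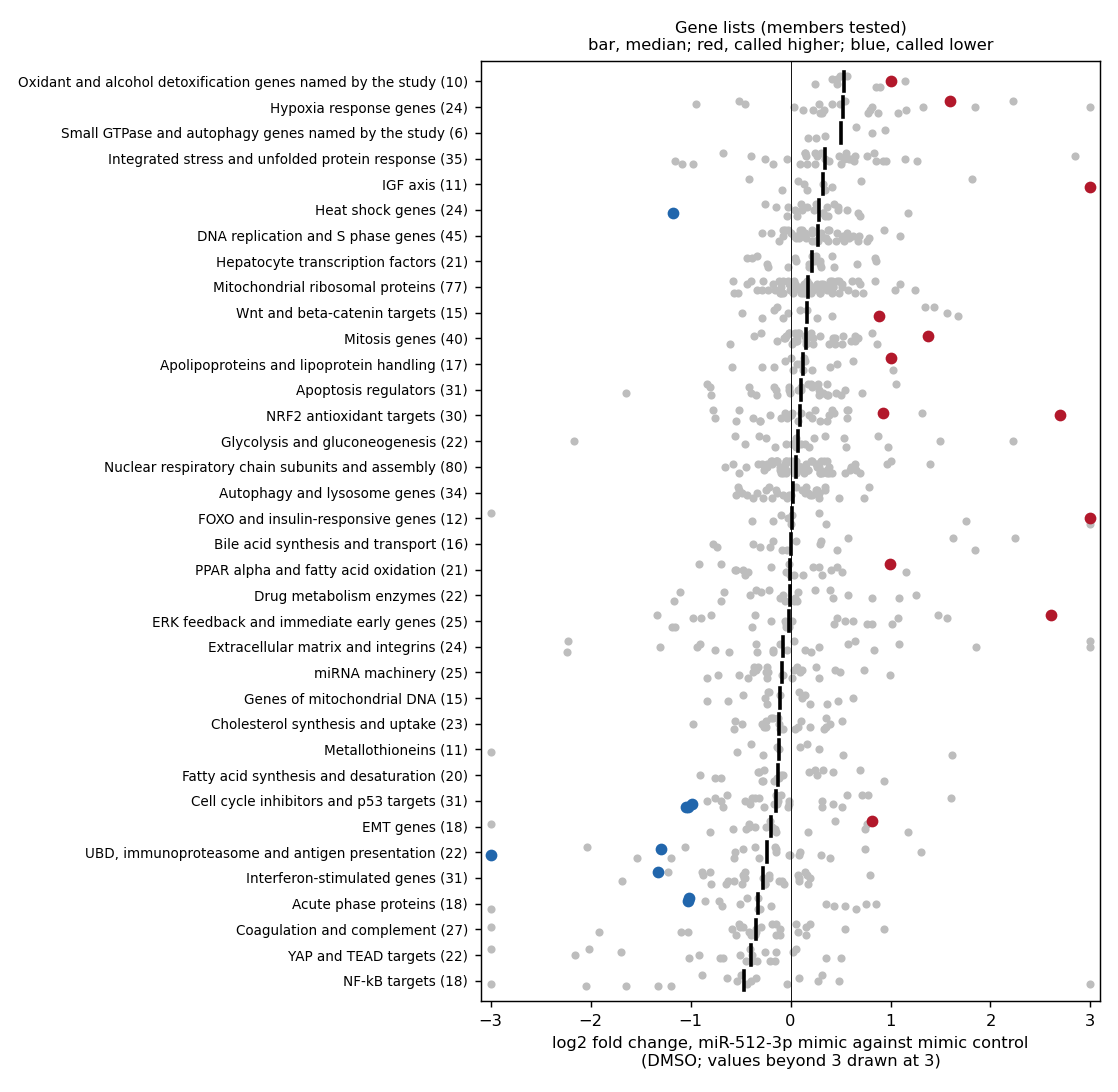
Each point is a tested member of a gene list, with its log2 fold change for the mimic against the mimic control in DMSO on the x axis (values beyond 3 drawn at 3), the list's median as a bar, called higher genes in red and called lower genes in blue. The medians run from 0.53 for the detoxification genes named by the study to −0.46 for the NF-kB targets, while most lists hold 0 or 1 called gene.

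Liver products split. Of 18 acute phase proteins 2 fell, FGB and HPX, the haem carrier hemopexin (from 41.6, 34.2 and 44.7 CPM to 21.7, 17.5 and 19.8 CPM, log2 fold change −1.03), and the median was −0.32. AHSG, fetuin A, had a positive 0.66 in the same list (adjusted p = 0.111). Coagulation and complement genes had 0 of 27 called (unadjusted, 0 higher and 4 lower), 20 negative and a median of −0.34, with vitronectin (VTN) at −1.10 and C3 at −0.51. Apolipoproteins had 1 of 17 higher, APOM, with 13 positive and a median of 0.12. Hepatocyte transcription factors had 0 of 21 called (unadjusted, 3 higher and 0 lower) and a median of 0.22, with the bile acid receptor NR1H4 at 0.85. Lists of bile acid genes and drug metabolism enzymes had 0 of 16 and 0 of 22 called (unadjusted, 0 higher and 1 lower, and 2 higher and 1 lower), both with medians near 0 (0.01 and −0.01). The summed hepatocyte markers given above were higher with the mimic, and their part in these values was not tested.

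In metabolism, the called genes were few and lay in different lists. The list of FOXO and insulin-responsive genes had a median of 0.01, with IGFBP1 the only call among 12. KLF15, a regulator of fasting metabolism in that list, and PCK1, an enzyme of gluconeogenesis, had 3.81 and 1.75 at low levels without passing by edgeR. The 11 tested genes of the IGF axis had a median of 0.33, with IGFBP1 again the only call. Glycolysis and gluconeogenesis had 0 of 22 called (unadjusted, 5 higher and 2 lower) and a median of 0.08, with hexokinase HK2 at 1.49. Cholesterol genes (23) and fatty acid synthesis genes (20) had 0 called (unadjusted, 1 higher and 1 lower in each) and medians of −0.11 and −0.12, and of 21 PPAR alpha and oxidation genes 1 rose, FABP1, at a median of −0.00. In mitochondria, the 77 ribosomal proteins had 0 called (unadjusted, 12 higher and 2 lower), 56 positive and a median of 0.17 (0.18 for miR-222-5p against MC and −0.03 between the mimics), the 80 nuclear respiratory chain genes 0 called (unadjusted, 4 higher and 1 lower) and 0.06, and the 15 genes of mitochondrial DNA 0 called (unadjusted, 1 higher and 1 lower) and −0.11. Of the latter, MT-ND5, a subunit of complex I, had −0.83 (adjusted p = 0.0758).

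Signalling and structure lists held 0 or 1 call each. YAP and TEAD targets had 0 of 22 called, 18 negative, 7 with an unadjusted p under 0.05 downwards and 1 upwards, and a median of −0.40. ANKRD1, a common readout of YAP, measured 61.1, 94.2 and 99.9 CPM against 226, 324 and 279 CPM without passing (log2 fold change −1.70, adjusted p = 0.058). The groups of ANKRD1 did not overlap, which was so for 21.4% of all genes tested. Of 15 Wnt targets 1 rose, BMP4, with a median of 0.16 and with SP5 at 1.68 and DKK1 at 1.43. Of 25 ERK feedback and immediate early genes 1 rose, DUSP7, at a median of −0.02, with DUSP6 at 1.08 and JUND at −1.19. Of 18 genes of epithelial-mesenchymal transition 1 rose, EPCAM, at a median of −0.20, and 24 matrix and integrin genes had 0 called (unadjusted, 4 higher and 5 lower) and −0.07, with the matrix protein SPARC at −1.30. The miRNA machinery (25), autophagy and lysosome genes (34) and metallothioneins (11) had 0 called and medians of −0.09, 0.03 and −0.11, with 3, 1 and 0 members higher and 3, 3 and 1 lower at an unadjusted p under 0.05. DESeq2 called more genes in all, 232 of 13244, with 108 higher and 124 lower and no adjusted p for 1799. By DESeq2, the lists with 0 calls by edgeR held 0 to 3 calls each. Among them were HK2, NR1H4, DNAJC3, PSAT1, CDC6, FEN1 and LOX as higher and ANKRD1, SPARC, LOXL4, MT-ND5 and CNOT6 as lower. In the lists with calls by edgeR, it also called KLF15, EPO, MGST1, DUSP6, AHSG, AKR1C2 and CCNA2 as higher. JUND, PSMB9 and PSME1 were called lower in those lists.

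Of the genes that the study named for miR-512-3p, 2 groups were read as separate lists. The study also named, among others, mitochondrial ribosomal proteins, whose list is given above. The study drew its genes from those it found lower with the mimic and unchanged in its transfection control. Since it chose them on samples of this series, they are not independent evidence of a direction. All 10 detoxification genes had positive values, with a median of 0.53 and 1 called, APOM. MGST1, a microsomal glutathione transferase, had 1.15 and GSR, glutathione reductase, 0.57, without passing. All 6 small GTPase and autophagy genes also had positive values, from 0.18 for WIPI1 to 0.94 for RAP2C, with 0 called (unadjusted, 2 higher and 0 lower) and a median of 0.50. In sorafenib the medians of these 2 groups were −0.13 and −0.10.

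Without MC replicate 2, 44 genes were called, 20 higher and 24 lower. Of the 84 genes, 38 were among them, 14 higher and 24 lower, and all 84 kept their sign. The 6 calls that appeared were all higher with the mimic: FOXN2, AUNIP, FEN1, PTGR1, COX7C and NEDD9, with log2 fold changes of 2.33, 2.64, 1.47, 1.70, 1.37 and 1.12. FEN1 belongs to the replication list and COX7C to the respiratory chain. The hypoxia median went from 0.52 to 0.79, that of the small GTPase group from 0.50 to 0.75, that of interferon-stimulated genes from −0.28 to −0.40 and that of antigen presentation from −0.24 to −0.11. The metallothionein median changed sign, from −0.11 to 0.62, and the replication and acute phase medians stayed at 0.26 and −0.31. The median over all genes was 0.01 in this fit.

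The same transfections with sorafenib share no library with the DMSO comparison, and show which changes recur beside the drug. There, 47 genes were called (0.355%), 5 higher (0.0378%) and 42 lower (0.317%), and scaling by total counts moved the median of all genes from −0.01 to −0.13 and gave 91. Without MC sorafenib replicate 1, MC sorafenib replicate 3 or mimic sorafenib replicate 1 the count was 27, 18 or 22. Of the 49 genes lower in DMSO, 45 (91.8%) were negative in sorafenib and 13 were called lower. Of the 35 higher genes, 29 (82.9%) were positive but only POP7, a protein subunit of ribonuclease P, was called. Over all genes, 61.2% had the same sign in both. The median of the lower genes was −1.30 in DMSO and −0.78 in sorafenib, and that of the higher genes 1.10 and 0.44. Since the 84 genes were chosen by their DMSO values, smaller values in a comparison of other libraries follow in part from the choice and are not read as a difference with the drug.

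The 25 lower genes with a site were all negative in sorafenib, with a median of −0.90, and 9 were called there: DHX40, GLTP, HSPA4L, MBD2, RELA, RHOC, SLC35F6, SPOP and TNFAIP1. MBD2 had −1.44 in DMSO and −1.56 in sorafenib (adjusted p = 0.00028), and DHX40 −1.62 and −2.06 (adjusted p = 0.000143). Of the 19 lower genes with a UTR but no site, 18 were negative, the median was −0.71 and 4 were called, ACTA2, C12orf75, PKN2 and TMEM14A. Of the 5 without a UTR only 2 were negative. MXD4 has a site but had −1.88 in DMSO and −0.16 in sorafenib, where MC itself measured 25 ± 4.27 CPM (SD, n = 3) beside 90.6 ± 34.7 CPM in DMSO.

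Of the higher genes, IGFBP1 had 0.22 in sorafenib, with 45 ± 16.3 CPM in the mimic and 39 ± 28 CPM in MC (SD, n = 3). The difference between its 2 fold changes was −3.71 (SE 0.53, adjusted p = 0.00423), the only such difference that passed among the 13244 genes (0.00755%), and it passed with each library left out. NDRG1 had 0.21 in sorafenib, SELENOP −0.12 and APOM −0.28, against 1.59, 1.30 and 1.01 in DMSO. Their differences of −1.38, −1.42 and −1.29 did not pass the adjustment. IL6R kept 1.36 in sorafenib beside 1.71 in DMSO (adjusted p = 0.0559 in sorafenib), and BMP4 0.80 beside 0.89.

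**Figure D5:**
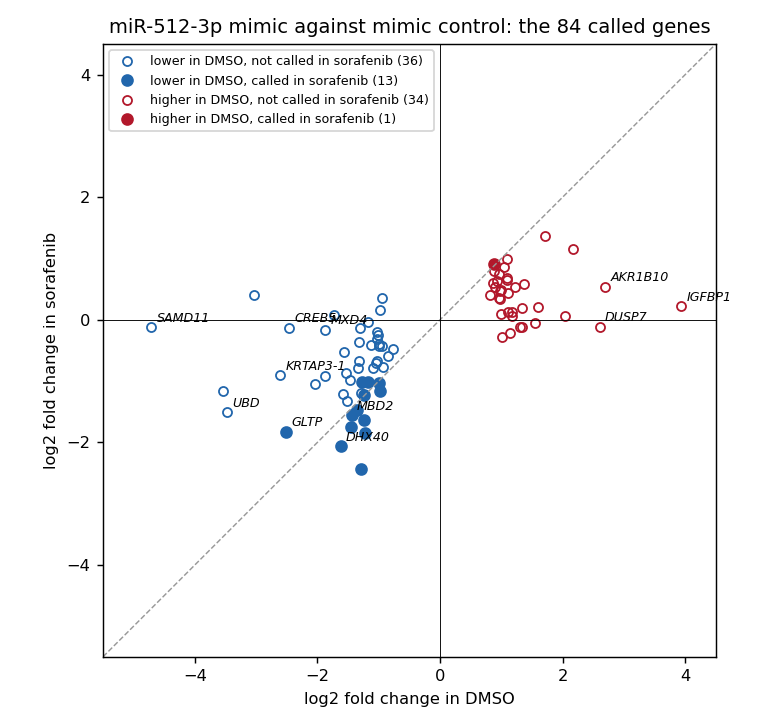
Each point is 1 of the 84 genes called in DMSO, with its log2 fold change for the mimic against the mimic control in DMSO on the x axis and in sorafenib on the y axis, and the dashed line marks equal values. In both directions most genes lie nearer to 0 in sorafenib, with 13 of 49 lower genes (blue) and 1 of 35 higher genes (red) called there (filled), IGFBP1 at 3.93 and 0.22, UBD at −3.48 and −1.51 and SAMD11 at −4.72 and −0.12.

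The miR-222-5p mimic in DMSO gave a view of what transfection with another mimic does, although its comparisons reuse the MC or the miR-512-3p libraries. Against MC, it gave 0 called genes by edgeR (737 with an unadjusted p under 0.05, 5.56%). Against the miR-222-5p mimic, the miR-512-3p mimic differed at 99 genes (0.748%), 49 higher (0.37%) and 50 lower (0.378%). That count was 33 or 17 without miR-222-5p replicate 1 or 3, and 32, 18 or 16 without miR-512-3p replicate 1, 2 or 3. IGFBP1 had 3.73 in this comparison and 0.21 for miR-222-5p against MC, NDRG1 had 1.28 and 0.31, MBD2 −1.69 and 0.25, and GLTP −2.52 and −0.00. UBD had −1.98 and −1.51, DHX40 −1.01 and −0.61, HPX 0.05 and −1.08 and PLA2G2A 0.85 and 1.32. List medians in the same order were 0.40 and 0.11 for hypoxia response genes, 0.23 and 0.09 for the integrated stress list, −0.69 and 0.33 for NF-kB targets, −0.32 and −0.16 for YAP and TEAD targets, 0.01 and −0.09 for acute phase proteins and −0.05 and −0.28 for coagulation and complement genes.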

How the data were processed

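HepG2 libraries were made with the QuantSeq 3′ FWD kit from total RNA. The authors trimmed the reads, aligned them to GRCh38 with STAR under modified ENCODE settings and counted reads per gene with HTSeq-count, and the deposited values used here are these raw counts. The release of the annotation, how strand was set and whether molecular identifiers were collapsed are not given in the sources used here. The authors also deposited normalised values, not used here. Of 60199 lines, 92 named no gene and were left out (1.51e-06% of counts), and 56104 of 60107 identifiers matched a symbol (unmatched, 0.106% of counts).

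Groups came from the sample labels, and all 18 libraries of 24 h (6 groups of 3) entered one edgeR 4.0.16 quasi-likelihood fit in R 4.3.3, with TMM scaling, filterByExpr and 1 coefficient per group. P-values were adjusted over all 13244 genes (Benjamini-Hochberg, threshold 0.05), and the script was tested on simulated counts. Fold changes are log2, with SE from the F statistic, and levels are TMM-scaled CPM (marker sums and limits for 0 counts are scaled by total counts), which count reads near the 3′ end and are not divided by length. UTRs and coordinates came from GENCODE release 44, with a UTR for 84.5% of tested genes. Alternatives were DESeq2 1.42.0, its size factors, total counts, no filter, a replicate block, only the 6 libraries, and each library left out. Libraries of a group differed by more than sampling noise.

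The comparison, the gene lists and the markers were chosen with earlier results of these data known. Genes were named by a rule: the 12 largest rises and falls with a mean of at least 5 CPM and no overlap, called list members, the 3 smallest p of each list, 10 lower genes with a site and the genes the study named. The sequence of 1 site is not reported here. SAMD11, ZNF385C, the small RNAs and the other genes described outside this rule were chosen after their values were seen.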

Additional observations from a re-analysis of the deposited data

Results flagged for a closer look

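The fold change of IGFBP1 with the mimic differed between DMSO and sorafenib by −3.71 on the log2 scale, by the test of that difference (edgeR, adjusted p = 0.00423). Per library, IGFBP1 was at 495 to 551 CPM with the mimic and 26.7 to 49.2 CPM with the mimic control in DMSO, all 3 mimic libraries being higher, and the group means in sorafenib were 45 and 39 CPM.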

How the results depend on the processing

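The mimic comparison in DMSO (84 genes) gave 88 with DESeq2's size factors, 73 with total counts, 123 with the replicate block, 165 with only the 6 libraries (94 higher, 71 lower), 232 with DESeq2 and 292 without a filter (191 higher, 101 lower), and 18 to 44 with each library left out. All 84 kept their sign in each of these, and 83 of them were called with the block. The replicate numbers did not pair the mimic and MC libraries in DMSO (correlations of deviations 0.0687, −0.0365 and −0.0689), so the block is a description. Between libraries of unlike number these correlations ran from −0.0888 to 0.139, the highest for mimic replicate 3 with MC replicate 2. Whether libraries pair under other numbers was not tested. In each MC and miR-222-5p group, replicate 2 had the most genes with a count (16132 to 16334). In the miR-512-3p groups replicate 3 had the most (16114 and 16582), and the part of this in the results was not tested. The sorafenib comparison (47) gave 237 with DESeq2, 91 with total counts, 169 without a filter, 89 with the block and 18 to 48 with a library left out. The difference of fold changes (1 gene) gave, under the same settings, 15, 1, 28, 1 and 1 to 3, and the comparison with the miR-222-5p mimic (99) gave 251, 88, 2.2e+02 (123 higher and 99 lower), 156, and 16 to 115. The median of genes with a site (−0.04) was −0.0809 with total counts (where the median without the match was lower too, and the gap was −0.0953 beside −0.0938), −0.21 for sites followed by A, and −0.0396 to −0.0169 with each library left out. The cause of these differences was not tested. DESeq2 gave no adjusted p to 1799 genes in DMSO. With 3 libraries a group and a common biological coefficient of variation of 0.356, small changes and levels near 1 CPM could not be resolved.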
